A study of Mus musculus with 21 samples.

Results

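Levels of 9 CXC chemokine genes, Cxcl1, Cxcl2, Cxcl3, Cxcl5, Cxcl9, Cxcl10, Cxcl11, Cxcl12 and Cxcl16, were read from RNA-Seq libraries of sorted mouse inflammatory monocytes (IMs). The genes were taken by name, and all 9 are among the 23420 gene symbols of the count table. No measured value served as a filter, but the 9 were chosen with earlier results of these data known. The study compared tumor inflammatory monocytes (TIMs) from models of lung squamous cancer with bone marrow (BM) IMs of healthy mice of the host strain. TIMs came from primary lung tumors and from lymph node metastases of FVB mice given 500000 KAL-LN2-E1 (LN2E1) cells by injection into the lung (n = 5 each), and from lungs of DBA2 mice given 300000 LN4K1 cells intravenously (n = 5). BM IMs came from naive FVB and naive DBA2 mice (n = 3 each), which carried no tumor. The labels give no genotype change and no drug for any group. Per the study's methods the mice were of both sexes and 8 to 15 weeks old when injected, in a passage that names FVB but not DBA2 mice, and how age and sex fall on the groups is not given in the sources used here. All cells went through a magnetic monocyte isolation kit and a sort on CD45, CD11b, Ly6C and Ly6G, and the study's methods add Siglec-F to the gate.

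Each tumor model was 1 cell line in 1 mouse strain. LN2E1 was placed in the lung and spread from there, while LN4K1 reached the lung through the blood, so tumor line, strain, route and tissue differ together and cannot be told apart between the models. BM IMs differ from TIMs in tissue and in the presence of a tumor. The study's methods speak of the libraries of a group as technical replicates, so the p-values below measure the spread between libraries, which may not be a spread between mice.

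CXC chemokines are small secreted proteins that steer leukocytes through G protein-coupled receptors. Cxcl1, Cxcl2, Cxcl3 and Cxcl5 carry a Glu-Leu-Arg (ELR) motif, bind Cxcr2 and are known for drawing neutrophils, and their transcription is a textbook target of NF-kB. Cxcl9, Cxcl10 and Cxcl11 lack the motif, are induced by interferons and draw T cells and NK cells through Cxcr3. Cxcl12 retains Cxcr4-bearing leukocytes in the marrow and is made chiefly by stromal cells, and Cxcl16, a transmembrane ligand that proteases can shed, binds Cxcr6.

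In the GENCODE vM21 annotation of GRCm38, 7 of the 9 genes lie on chromosome 5 in a pair of clusters 1415 kb apart. Cxcl5 (chr5:90759360-90761624), Cxcl3 (chr5:90786103-90789600), Cxcl1 (chr5:90891241-90893115) and Cxcl2 (chr5:90903871-90905938) share the plus strand within 146.6 kb. Cxcl9 (chr5:92321347-92328079), Cxcl10 (chr5:92346638-92348889) and Cxcl11 (chr5:92359544-92365485) share the minus strand within 44.1 kb. Cxcl12 (chr6:117168535-117181367, plus strand) and Cxcl16 (chr11:70453983-70459984, minus strand) stand alone. Cxcl11 is annotated as a polymorphic pseudogene, a gene that codes for protein in some mouse strains and not in others. The library kit does not mark strand, so reads of overlapping genes on opposite strands cannot be told apart. Such overlap covers 41.7% of the exon bases of Cxcl11 (with Gm2673), 18.3% of Cxcl16 (with Zmynd15) and 5.91% of Cxcl10 (with Art3). Cxcl2 and Cxcl3 share 126 runs of 50 identical bases, of 2159 in Cxcl2 and 3587 in Cxcl3, so a small part of their reads could be assigned to either.

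RefSeq promoters (GRCm38.p6, from 250 bases before to 50 after the transcription start) were at hand for 6 of the 9 genes, Cxcl1, Cxcl2, Cxcl3, Cxcl9, Cxcl10 and Cxcl12. The 200 bases from 230 to 31 before the start are shown for the 3 ELR genes and for the 2 interferon-induced genes among them, since these genes rose in TIMs. Capitals mark a match, on either strand, to the kappaB consensus or to GAAANNGAAA, the core of the interferon-stimulated response element (ISRE). The ranges are chr5:90891015-90891214 for Cxcl1, chr5:90903669-90903868 for Cxcl2 and chr5:90785871-90786070 for Cxcl3, all on the plus strand, and chr5:92348920-92349119 for Cxcl10 and chr5:92328110-92328309 for Cxcl9, both on the minus strand.
Cxcl1: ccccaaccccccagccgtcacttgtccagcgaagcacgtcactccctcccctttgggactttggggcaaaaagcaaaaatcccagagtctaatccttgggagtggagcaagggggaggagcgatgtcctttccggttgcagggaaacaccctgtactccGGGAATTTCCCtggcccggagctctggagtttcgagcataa
Cxcl2: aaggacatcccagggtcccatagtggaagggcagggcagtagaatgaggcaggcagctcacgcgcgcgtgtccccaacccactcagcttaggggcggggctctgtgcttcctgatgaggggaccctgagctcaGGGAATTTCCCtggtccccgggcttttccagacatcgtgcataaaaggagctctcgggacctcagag
Cxcl3: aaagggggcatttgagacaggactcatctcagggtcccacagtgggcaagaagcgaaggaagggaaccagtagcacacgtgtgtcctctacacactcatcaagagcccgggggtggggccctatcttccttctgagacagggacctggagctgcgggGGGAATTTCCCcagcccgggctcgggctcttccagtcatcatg
Cxcl10: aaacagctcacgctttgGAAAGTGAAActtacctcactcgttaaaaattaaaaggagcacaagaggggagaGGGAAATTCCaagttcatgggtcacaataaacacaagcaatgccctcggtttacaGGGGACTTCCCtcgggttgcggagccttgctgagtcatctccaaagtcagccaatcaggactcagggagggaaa
Cxcl9: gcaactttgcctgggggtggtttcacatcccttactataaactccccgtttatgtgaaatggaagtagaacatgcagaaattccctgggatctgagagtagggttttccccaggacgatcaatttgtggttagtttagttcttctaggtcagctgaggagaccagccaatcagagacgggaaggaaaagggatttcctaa

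Cxcl1, Cxcl2 and Cxcl3 each held GGGAATTTCCC, a match to the kappaB consensus, with its first base 71, 97 and 73 bases before the start. Cxcl10 held 2 kappaB matches, GGGAAATTCC at 159 and GGGGACTTCCC at 104 bases, and 1 ISRE core, GAAAGTGAAA, at 213 bases. Neither motif was found in the windows of Cxcl9 and Cxcl12, and TTCNNNGAA, the gamma-activated site (GAS), was found in none of the 6. Of 32851 mouse promoters of the same length, 8.46% held the kappaB consensus, 3.44% the ISRE core and 8.3% the GAS. A match is a run of letters and does not show that a factor binds there.

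Total counts per library lay between 80772922 and 101043568, so a floor of 3 counts stood for at most 0.0405 CPM. CPM, the count scaled to library size, used TMM factors over the 21 libraries. All 9 monocyte markers checked, among them Ly6c2 and Ccr2, were present in every group, with Ly6c2 at 974 CPM or more in every library. Their levels were not constant. Ly6c2 had medians of 3035 and 2512 CPM in FVB and DBA2 BM IMs against 1267, 1466 and 1525 CPM in primary tumor, lymph node and lung TIMs. Ly6c1 was lower in TIMs too, while Ptprc, Itgam, Csf1r and Fcgr1 had higher medians. Fcgr1 had 19.1 and 39.0 CPM in FVB and DBA2 BM IMs against 340, 468 and 194 CPM in the same TIM order. Expression correlated least with the rest of its group in lymph node TIM replicate 1 (mean r of 0.889) and LN4K1 lung TIM replicate 3 (0.907), and no pair of libraries agreed within sampling noise. Markers of other cells moved with the groups. The summed level of 7 fibroblast genes was 378 to 1134 CPM for the primary tumor group, 12.2 to 108 CPM for the lymph node group, 1.81 to 43.1 CPM in lung TIMs and at most 9.16 CPM in BM IMs, where Col3a1 and Dcn were at or under the floor. The sum of 7 dendritic cell genes was 67.3 to 564 CPM in lymph node, 125 to 259 CPM in primary tumor and 40.9 to 113 CPM in lung TIMs against 9.91 to 20.1 CPM in BM IMs. Siglech carried most of that sum in the LN2E1 groups, with medians of 103 CPM in primary tumor and 245 CPM in lymph node TIMs. In TIMs Zbtb46, Xcr1 and Clec9a were at most 4.63 CPM. The sum of the 9 neutrophil genes in the table was 3021 to 5311 CPM in BM IMs and 576 to 1854 CPM in TIMs, but its genes did not move together. Granule genes of neutrophil precursors carried the lower sum, such as Mpo, with medians of 1323 CPM in FVB BM IMs and 1.52 CPM in primary tumor TIMs, and Ngp with 1380 and 3.19 CPM. Csf3r, the G-CSF receptor, had a median of 268 CPM in FVB BM IMs and 547 CPM in primary tumor TIMs, and Mmp8, the neutrophil collagenase, 443 and 596 CPM, while from DBA2 BM IMs to lung TIMs Mmp8 went from 222 to 808 CPM. Lung epithelium genes summed to 260 to 1003 CPM in primary tumor, 110 to 162 CPM in lymph node and 233 to 317 CPM in lung TIMs. The sum was 164 to 316 CPM in BM IMs, so the primary tumor range overlapped with those of lung TIMs and BM IMs. Hopx carried most of the sum outside primary tumors, with medians of 305 and 178 CPM in FVB and DBA2 BM IMs. Its medians were 126, 117 and 216 CPM in primary tumor, lymph node and lung TIMs. Sftpc (surfactant protein C), Scgb1a1 and Sftpa1 had medians of 140, 74.7 and 31.8 CPM in primary tumor TIMs. In lymph node TIMs their medians were at most 0.0713 CPM. Squamous epithelium and tumor cell genes summed to 49.1 to 79.3 CPM in primary tumor, 9.81 to 140 CPM in lymph node and 1.16 to 38.8 CPM in lung TIMs, against at most 2.14 CPM in BM IMs. Cdh1 carried these sums, at 42.5 to 73.2 CPM in primary tumor and 8.14 to 136 CPM in lymph node TIMs. In these LN2E1 groups Epcam was at most 8.21 CPM, Krt14 at most 2.49 CPM, and Krt5, Krt6a, Trp63 and Dsp at most 0.523 CPM. Endothelial genes summed to 51.9 to 110 CPM in the LN2E1 groups and at most 16.3 CPM elsewhere. Pecam1 carried that sum, with medians of 49.3 and 71.9 CPM in primary tumor and lymph node TIMs. Kdr reached at most 13.6 CPM there, and Cdh5, Tek, Cldn5 and Emcn at most 4.54 CPM. T cell genes summed to 3.42 to 54.7 CPM in TIMs and at most 2.51 CPM in BM IMs. Cd4 and Cd8a carried the T cell sum in the LN2E1 groups, while Cd3d, Cd3e and Cd3g were at most 3.54 CPM in TIMs. The mature macrophage sum was higher in every TIM library (2307 CPM or more) than in every BM library (2036 CPM or less). Apoe made up most of it, with group medians of 2114 to 4612 CPM in TIMs. From DBA2 BM IMs to lung TIMs, C1qa, C1qb and C1qc had lower medians (C1qa 7.58 to 2.94 CPM). Apoe, Emr1, Mrc1 and Mertk had higher ones. The alveolar macrophage and eosinophil sum was lower in TIMs, at most 87.9 against at least 442 CPM. Prg2, Epx and Ear1 carried that fall, with Prg2 at BM medians of 763 and 524 CPM. In lung TIMs against DBA2 BM IMs the Siglec5 median was lower too, while Marco and Car4 went from 0 to 0.190 and 0.834 CPM. In these bulk libraries, more cells of a type and more RNA per cell cannot be told apart, and the part of these markers in the results below was not tested except where a value is given.

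LN2E1 primary tumor TIMs had higher levels of nearly the whole family than FVB BM IMs. Of 9 members tested, 8 rose at an adjusted p under 0.05 in edgeR's quasi-likelihood test, where 33.3% of all 14569 genes tested rose. The study's stricter call, a differentially expressed gene (DEG) with a log2 fold change beyond 1 in size and an adjusted p under 0.0001, was met by 6 of the 9, Cxcl1, Cxcl2, Cxcl9, Cxcl10, Cxcl11 and Cxcl16, against 7.72% of all genes as DEGs in that direction. The 8 that rose were higher in every TIM library than in every BM library, as were 30.7% of all genes. For Cxcl5 the lowest TIM library, primary tumor replicate 2, had 3 counts against 0 in FVB BM IMs, which is no more than the floor. The median log2 fold change of the 9 was 6.03, against 0.08 over all genes.

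In lymph node TIMs 8 members passed the filter on low counts (Cxcl5 did not), and 7 of them rose against the same 3 FVB BM libraries, where 20.2% of all genes did. Cxcl12 was the 1 member that fell, and 17.2% of all genes fell. DEGs numbered 5, Cxcl2, Cxcl9, Cxcl10, Cxcl11 and Cxcl16, with 4.01% of all genes higher DEGs. The 7 that rose did not overlap between groups, as was true of 20.1% of all genes, and the median over the 8 was 4.62 against -0.04 over all genes. In LN4K1 lung TIMs 5 of the 8 members tested rose against DBA2 BM IMs, namely Cxcl3, Cxcl9, Cxcl10, Cxcl11 and Cxcl16, where 13.9% of all genes rose. The 4 of these other than Cxcl3 were DEGs, as were 1.21% of all genes in that direction. The same 5 were higher in every lung TIM library than in every DBA2 BM library, as were 19.9% of all genes, and the median over the 8 was 2.63 against 0.03. The number of DEGs was 2 in lymph nodes without FVB BM replicate 1, and in lungs it was 1 without DBA2 BM replicate 1, 2 or 3 or lung replicate 4 and 2 without lung replicate 1 or 2. The primary tumor and lymph node comparisons share their BM libraries and are not independent of each other.

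**Figure D1:**
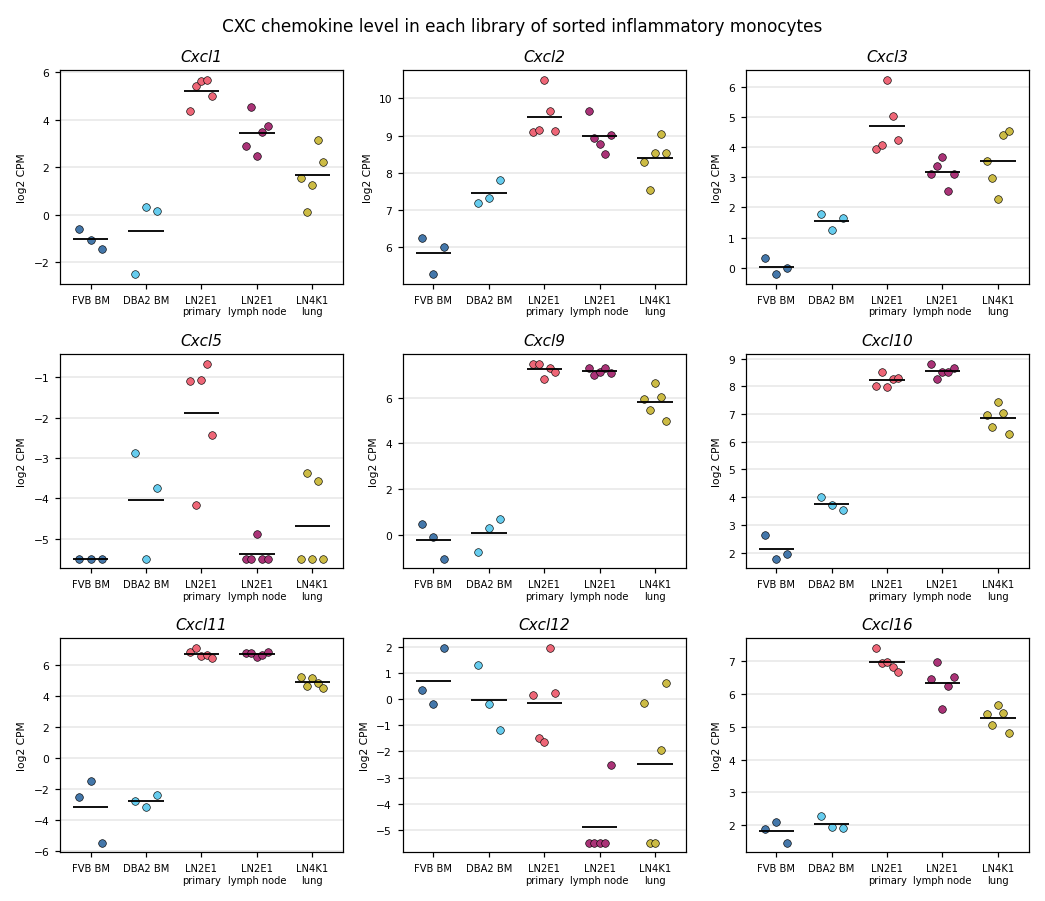
Level of each CXC chemokine in each of the 21 libraries, in log2 CPM with a prior count of 2; each point is a library, each bar the group mean, and each panel has its own vertical range. Cxcl9, Cxcl10, Cxcl11 and Cxcl16 lie higher in all 15 TIM libraries than in all 6 BM libraries, while Cxcl5 and Cxcl12 have libraries at 0 counts, which appear at the lower edge.

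Cxcl2 was the ELR chemokine with the highest level in every group. Its level was 75.7, 38.7 and 64.1 CPM in FVB BM IMs and 147, 161 and 225 CPM in DBA2 BM IMs. Primary tumor TIMs had 545, 565, 1449, 815 and 554 CPM, lymph node TIMs 806, 491, 437, 363 and 513 CPM, and lung TIMs 313, 185, 372, 531 and 369 CPM. All LN2E1 libraries lay above all FVB BM libraries, while the lowest lung library lay below the highest DBA2 BM library. The log2 fold change was 3.70 ± 0.43 (SE) in primary tumors, a 13.0-fold higher level (adjusted p = 8.86e-05), and 3.13 ± 0.32 in lymph nodes, an 8.77-fold higher level (adjusted p = 5.31e-05). In lung TIMs it was 0.92 ± 0.30 and just missed the threshold, with an adjusted p of 0.0517 that ranged from 0.00910 to 0.170 when single libraries were left out and passed without lung replicate 2 or 3. It also passed with DESeq2, the study's own test (adjusted p = 0.00973), with DESeq2 size factors in edgeR (0.0495), with either other filter on low counts (0.0498 and 0.0441) and with all 5 groups in 1 fit (0.0491), so its call rests on the setting.

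Cxcl1, a close relative with the same receptor, was nearly silent in BM IMs. Levels were 0.636, 0.459 and 0.348 CPM in FVB BM IMs and 0.154, 1.24 and 1.09 CPM in DBA2 BM IMs. Primary tumor TIMs had 20.7, 42.8, 49.5, 52.1 and 31.8 CPM, lymph node TIMs 7.49, 23.2, 5.63, 11.2 and 13.4 CPM, and lung TIMs 2.90, 1.08, 2.38, 8.85 and 4.65 CPM. Only the lung libraries overlapped with their BM libraries. The log2 fold change was 6.35 ± 0.41 in primary tumors (81.3-fold, adjusted p = 1.86e-06), 4.66 ± 0.59 in lymph nodes (25.3-fold, adjusted p = 0.000196) and 2.18 ± 0.82 in lungs, which did not pass (adjusted p = 0.0840). The lung value passed with DESeq2 (adjusted p = 0.0127) and with all 5 groups in 1 fit (adjusted p = 0.0146), and in none of the 8 edgeR fits without 1 library. The fibroblast sum beside these values was 554, 1070, 378, 1134 and 715 CPM in the 5 primary tumor libraries in the same order. Replicate 4 was the highest in both, replicate 1 the lowest in Cxcl1, and replicate 3 the lowest in the fibroblast sum and second in Cxcl1. The part of fibroblasts in the Cxcl1 level was not tested.

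Cxcl3, which also acts through Cxcr2, rose in all 3 TIM groups. Levels were 1.24, 0.836 and 0.965 CPM in FVB and 3.42, 2.33 and 3.15 CPM in DBA2 BM IMs. Primary tumor TIMs had 15.3, 16.7, 76.1, 32.7 and 19.1 CPM, lymph node TIMs 8.68, 10.5, 12.9, 5.89 and 8.70 CPM, and lung TIMs 11.6, 7.84, 4.83, 21.4 and 23.1 CPM. Every TIM library lay above the BM libraries of its strain, and primary tumor replicate 3 was the highest, as it was for Cxcl2. Cxcl3 rose by a log2 fold change of 4.97 ± 0.67 (adjusted p = 0.000213), 3.20 ± 0.41 (adjusted p = 0.000209) and 2.13 ± 0.52 (adjusted p = 0.0150) in primary tumors, lymph nodes and lungs. The lung call held in 6 of the 8 fits without 1 library, and failed without DBA2 BM replicate 2 (adjusted p = 0.0713) or replicate 3 (adjusted p = 0.0588).

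Cxcl5 was hardly transcribed in any group. It had 0 counts in all 3 FVB BM libraries, 11, 0 and 5 counts in DBA2 BM libraries, and 41, 3, 39, 55 and 14 counts in primary tumor TIM libraries. Lymph node TIM libraries had 0, 0, 1, 0 and 0 counts and lung TIM libraries 0, 7, 0, 6 and 0. Set against the floor of 3 counts per library, the primary tumor level was at least 11.1-fold higher than in FVB BM IMs (adjusted p = 0.00466), and this call was lost against DBA2 BM IMs (adjusted p = 0.105). Primary tumor TIMs, where most Cxcl5 counts were found, also had the highest fibroblast sums and the highest median levels of the lung epithelial genes Sftpc, Scgb1a1 and Sftpa1. The part of either cell type in these counts was not tested.

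The Cxcr3 ligands Cxcl9, Cxcl10 and Cxcl11 were DEGs in all 3 TIM groups. Cxcl10 was 6.24, 3.43 and 3.88 CPM in FVB BM IMs and 15.9, 13.2 and 11.6 CPM in DBA2 BM IMs. Primary tumor TIMs had 255, 363, 253, 309 and 318 CPM, lymph node TIMs 450, 307, 369, 370 and 402 CPM, and lung TIMs 125, 93.0, 173, 132 and 77.8 CPM. No TIM library overlapped with a BM library. The log2 fold change was 6.03 ± 0.26 in primary tumors (65.5-fold, adjusted p = 2.18e-07), 6.40 ± 0.27 in lymph nodes (84.2-fold, adjusted p = 3.09e-07) and 3.07 ± 0.29 in lungs (8.40-fold, adjusted p = 5.98e-05).

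Cxcl9 started lower and reached a high level in LN2E1 TIMs with little spread. It was 1.39, 0.927 and 0.465 CPM in FVB and 0.575, 1.22 and 1.59 CPM in DBA2 BM IMs, and 179, 177, 113, 156 and 141 CPM in primary tumor TIMs. Lymph node TIMs had 158, 129, 138, 160 and 135 CPM, and lung TIMs 62.0, 43.4, 101, 64.9 and 31.5 CPM. The coefficient of variation was 18.0% in primary tumors, 9.68% in lymph nodes and 43.6% in lungs. Log2 fold changes were 7.37 ± 0.38 (165-fold, adjusted p = 5.48e-07), 7.29 ± 0.37 (157-fold, adjusted p = 7.42e-07) and 5.67 ± 0.53 (50.8-fold, adjusted p = 5.93e-05) in the same order.

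Cxcl11, the Cxcr3 ligand of highest known affinity, came from 32 counts or fewer per BM library. Levels were 0.148, 0.326 and 0 CPM in FVB and 0.123, 0.0898 and 0.169 CPM in DBA2 BM IMs. TIM levels were 115, 139, 96.1, 100.1 and 89.1 CPM in primary tumors, 112, 108, 92.0, 102 and 113 CPM in lymph nodes, and 38.2, 25.0, 36.5, 28.4 and 22.7 CPM in lungs. The fitted changes were 9.43 ± 0.67 (adjusted p = 4.13e-06), 9.41 ± 0.75 (adjusted p = 1.05e-05) and 7.80 ± 0.35 (adjusted p = 9.75e-07), with the size of each resting on the few BM counts. What share of these reads came from Gm2673 on the other strand was not tested.

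Cxcl16 rose in all 3 TIM groups from 3.56 ± 0.78 CPM (SD, n = 3) in FVB and 4.12 ± 0.60 CPM (n = 3) in DBA2 BM IMs. It was 170, 123, 125, 112 and 102 CPM in primary tumors, 87.9, 126, 46.1, 76.2 and 91.9 CPM in lymph nodes, and 41.9, 33.3, 50.6, 43.2 and 28.0 CPM in lungs. No TIM library overlapped with a BM library. It rose by log2 fold changes of 5.13 ± 0.23 (35.1-fold, adjusted p = 2.54e-07), 4.59 ± 0.35 (24.1-fold, adjusted p = 8.22e-06) and 3.18 ± 0.24 (9.08-fold, adjusted p = 1.68e-05).

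Cxcl12 was the member that did not rise in any TIM group. It had 111, 83 and 432 counts in FVB and 237, 85 and 40 counts in DBA2 BM libraries, which is 0.422 to 3.86 CPM. Primary tumor TIM libraries had 102, 30, 26, 349 and 100 counts, lymph node TIM libraries 0, 0, 0, 0 and 13, and lung TIM libraries 75, 0, 0, 23 and 134. All lymph node libraries lay below all FVB BM libraries, and the primary tumor and lung libraries overlapped with theirs. The log2 fold change in lymph nodes was -5.95 ± 1.81 (adjusted p = 0.0270), a call held in 5 of the 8 fits without 1 library and lost without any 1 of the 3 FVB BM libraries (adjusted p of 0.0549 to 0.111). Without lymph node replicate 5, which holds the 13 counts, it was -10.47. With all libraries it was -0.60 ± 0.84 in primary tumors (adjusted p = 0.564) and -1.33 in lungs, smaller than its standard error (adjusted p = 0.573). Primary tumor replicate 4, with 349 counts, also had the highest fibroblast sum of its group. Lymph node TIM libraries had fibroblast sums of at least 12.2 CPM against at most 9.16 CPM in BM IMs. Pdgfrb alone was 11.3 to 20.6 CPM in lymph node TIMs and at most 9.16 CPM in BM IMs. Col1a2 and Col3a1 had lymph node medians of 10.4 and 6.64 CPM against at most 0.359 and 0.0114 CPM in BM IMs. The part of fibroblasts in the Cxcl12 level was not tested.

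**Figure D2:**
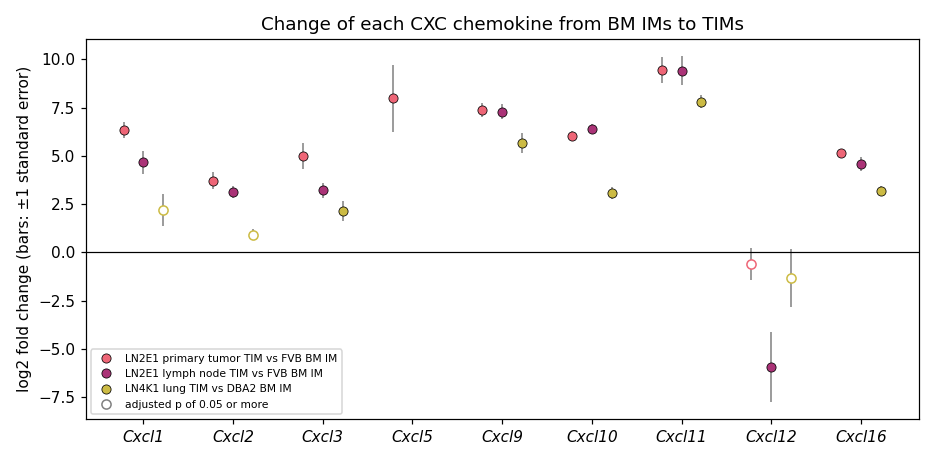
Log2 fold change of each CXC chemokine from BM IMs of the host strain to TIMs, with bars of ±1 standard error; filled points passed an adjusted p of 0.05 and open points did not, and Cxcl5 was tested in primary tumors only. Cxcl11 has the highest filled point within each comparison, from 7.80 to 9.43, and Cxcl12 is the only gene with points below 0.

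Levels of different genes were compared as CPM per kb of exon. Cxcl2 made up 86.4% ± 3.4 (SD, n = 3) of the summed level of the 9 genes in FVB BM IMs and 89.9% ± 2.7 (n = 3) in DBA2 BM IMs. Its share was 54.9% ± 10.8 in primary tumor, 46.4% ± 5.8 in lymph node and 62.2% ± 8.1 in lung TIMs (n = 5 each). The 4 ELR genes together held 88.1% and 91.3% in FVB and DBA2 BM IMs and 59.4%, 48.2% and 64.4% in primary tumor, lymph node and lung TIMs. Cxcl9, Cxcl10 and Cxcl11 together went the other way, with 7.22% ± 1.61 and 7.03% ± 2.03 in FVB and DBA2 BM IMs against 33.9% ± 9.8, 46.4% ± 5.9 and 30.6% ± 8.0 in the TIM groups. Ranges of both shares in each TIM group were apart from those in the BM libraries of either strain. The level of the ELR genes did not fall, since their sum was 29.3 ± 9.2 CPM per kb in FVB BM IMs and 410 ± 199 CPM per kb in primary tumor TIMs.

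**Figure D3:**
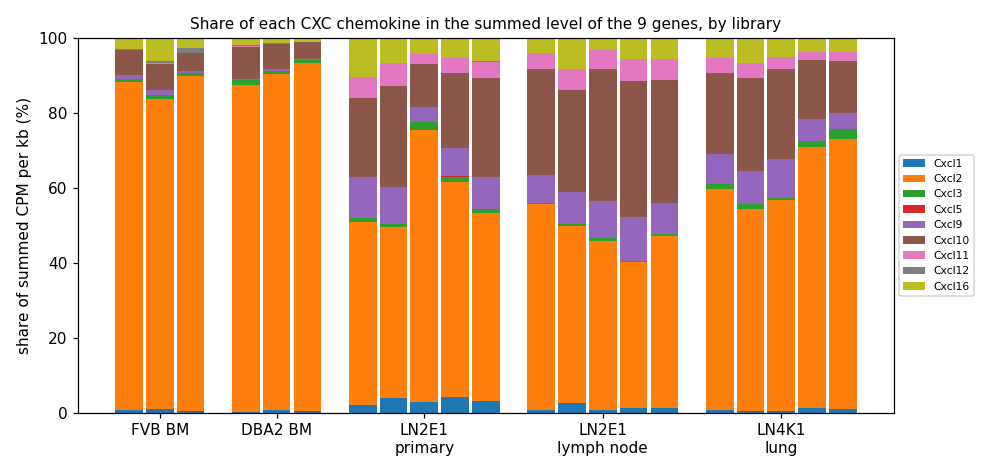
Share of each of the 9 genes in their summed CPM per kb of exon, with 1 bar per library and libraries grouped by source. Cxcl2 fills 82.7% to 92.7% of each BM bar, and Cxcl10 takes 11.6% to 36.3% of each TIM bar.

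Lymph node and primary tumor TIMs of the LN2E1 model were compared directly. Cxcl1 and Cxcl3 were lower in lymph nodes, 2 of 8 members tested, where 5.55% of all genes were lower. Cxcl1 was 3.22-fold lower (log2 fold change -1.69 ± 0.38, adjusted p = 0.0153) and Cxcl3 was 3.41-fold lower (-1.77 ± 0.44, adjusted p = 0.0244). The Cxcl3 value was -1.16 without primary tumor replicate 3, its highest library, and no longer passed without replicate 4 (adjusted p = 0.0562). No member was a DEG, as 0.0297% of all genes were in either direction, although 5 members had an unadjusted p under 0.05 in edgeR and DESeq2 called 1 DEG. The members that passed at 0.05 numbered 1 without primary tumor replicate 4 and 4 without lymph node replicate 1 or 5. Cxcl9 and Cxcl11 had nearly equal means, with log2 fold changes of -0.08 ± 0.13 and -0.02 ± 0.12, and Cxcl10 was 0.35 ± 0.13 (adjusted p = 0.102). Cxcl12 had a log2 fold change of -5.37 ± 1.59 that missed the threshold (adjusted p = 0.0509), and Cxcl16 one of -0.55 ± 0.23 (adjusted p = 0.151). The Cxcl12 difference passed with DESeq2 (adjusted p = 0.00221), with all 5 groups in 1 fit (0.0316) and without lymph node replicate 1 (0.0488) or replicate 5 (0.0126), and without replicate 5 it was -9.84. Beside these values the fibroblast sum, too, was lower in every lymph node library than in every primary tumor library.

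The BM IMs of the strains differed before any tumor was present. Cxcl2, Cxcl3 and Cxcl10 were higher in DBA2 than in FVB BM IMs, 3 of 8 members tested, where 11.5% of all genes were higher. Cxcl2 was 3.03-fold higher (log2 fold change 1.60 ± 0.26, adjusted p = 0.00478), Cxcl3 2.98-fold (1.57 ± 0.36, adjusted p = 0.0185) and Cxcl10 3.06-fold (1.61 ± 0.27, adjusted p = 0.00544), and for all 3 genes the strains did not overlap. Cxcl3 passed in 3 of the 6 fits without 1 library, and failed without FVB replicate 2 (adjusted p = 0.0720), DBA2 replicate 1 (0.0620) or DBA2 replicate 3 (0.0666). No member was a DEG by edgeR, as 0.403% of all genes were in either direction, with 3 members at an unadjusted p under 0.05 and 2 DEGs by DESeq2. Cxcl1, Cxcl9, Cxcl11, Cxcl12 and Cxcl16 did not pass.

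The change from BM IMs was lower in LN4K1 lung TIMs than in LN2E1 primary tumor TIMs for 7 of the 9 genes by a test of the difference itself, where 13.2% of all 15182 genes tested had a lower change in lung TIMs. The lung change minus the primary tumor change was -2.98 ± 0.35 on the log2 scale for Cxcl10 (adjusted p = 7.75e-05), which was the only DEG of the contrast among the 9, with 0.329% of all genes such DEGs in that direction, a call lost in 14 of 16 fits without 1 library and held without lung replicate 3 or 5. The same difference was -4.17 ± 0.89 for Cxcl1 (adjusted p = 0.00390), -2.80 ± 0.51 for Cxcl2 (adjusted p = 0.00156) and -2.85 ± 0.78 for Cxcl3 (adjusted p = 0.0148). It was -1.97 ± 0.29 for Cxcl16 (adjusted p = 0.000449) and -1.71 ± 0.54 for Cxcl9 (adjusted p = 0.0300), the latter lost without FVB BM replicate 2 or 3, DBA2 BM replicate 2 or 3 or primary tumor replicate 4. Cxcl5 passed too (adjusted p = 0.0237) on 55 counts or fewer per library, lost without FVB BM replicate 1 or 2 or DBA2 BM replicate 1, so its size is not given here as a fold. Cxcl11 (-1.64 ± 0.76, adjusted p = 0.121) and Cxcl12 (-0.76 ± 1.83, adjusted p = 0.820) did not pass, although Cxcl11 did with unshrunken DESeq2 (adjusted p = 0.0342) and, at -2.82, without FVB BM replicate 2 (adjusted p = 0.0223). Without FVB BM replicate 3 it was -1.02 (adjusted p = 0.122). Of the 7 genes, Cxcl1 and Cxcl2 had not passed in lung TIMs alone, and Cxcl5 was not tested there, with 0 to 7 counts per lung library. Part of the contrast for Cxcl2, Cxcl3 and Cxcl10 lay in the BM baseline, whose higher level in DBA2 mice is given above.

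Ordered by mean log2 CPM, primary tumor TIMs stood first for Cxcl1, Cxcl2, Cxcl3, Cxcl5, Cxcl9, Cxcl11 and Cxcl16, and lymph node TIMs for Cxcl10. FVB BM IMs stood last for every gene but Cxcl12, for which they stood first. Between neighbours in these orders 36 two-sided exact permutation tests were run, and none had an adjusted p under 0.05, the smallest being 0.0952. That value, from a raw p of 0.00794, which is the smallest 5 libraries against 5 allow, belonged to lung TIMs against the next LN2E1 group for Cxcl9, Cxcl10 and Cxcl11, where the libraries did not overlap. With 5 libraries against 3 and with 3 against 3 the smallest p allowed is 0.0357 and 0.1. Primary tumor and lymph node TIMs were neighbours with close means for Cxcl9 (raw exact p = 0.619) and Cxcl11 (raw exact p = 0.905), and so were the BM IMs of the strains for Cxcl1 (0.8), Cxcl9 (0.6) and Cxcl11 (0.9).

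Within the TIM groups the members fell into blocks by library. With group means taken out of log2 CPM over the 15 TIM libraries, Pearson's r was 0.857 between Cxcl9 and Cxcl10, 0.738 between Cxcl9 and Cxcl11 and 0.660 between Cxcl10 and Cxcl11. Among the ELR genes r was 0.661 for Cxcl2 and Cxcl3, 0.542 for Cxcl1 and Cxcl2 and 0.524 for Cxcl1 and Cxcl3. Between the sets it lay from -0.644 (Cxcl3 and Cxcl9) to 0.163 (Cxcl2 and Cxcl10), and Cxcl16 had 0.611 with Cxcl11. These values are descriptions, since each pair of genes shares its libraries, their depth and the cells that entered each sort.

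**Figure D4:**
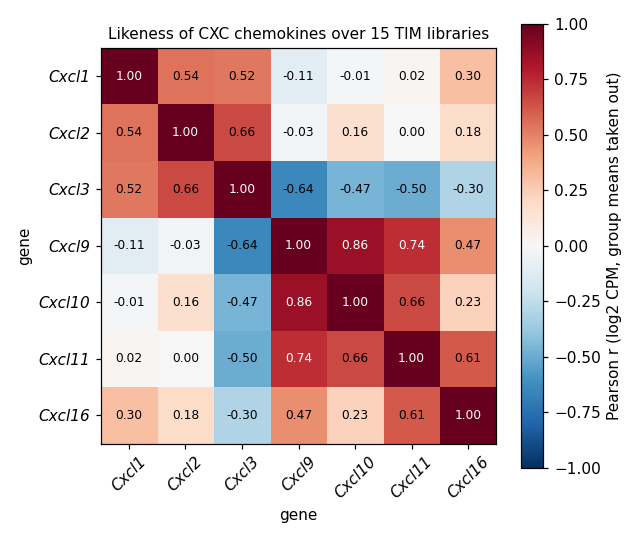
Pearson's r between the 7 CXC chemokines with a mean log2 CPM of at least 3 in TIMs, over 15 TIM libraries with group means taken out. A red block joins Cxcl9, Cxcl10 and Cxcl11 (0.66 to 0.86), a paler one joins Cxcl1, Cxcl2 and Cxcl3 (0.52 to 0.66), and Cxcl3 against Cxcl9 is the most negative cell (-0.64).

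Over the same 15 libraries and 7999 genes, the 2 genes most like each member were taken by that r. For Cxcl2 they were Ednrb, the endothelin B receptor (0.865), and Arg1, the arginase of myeloid cells (0.855). For Cxcl1 they were Chd7, a chromatin remodeler (0.768), and Acta2, smooth muscle actin (0.745), and for Cxcl3 Gm6682 (0.841) and Ier3, an immediate early gene (0.770). For Cxcl9 they were Il12rb2, a chain of the interleukin 12 receptor (0.900), and Slamf7 (0.884). For Cxcl11 they were Ifit3, an interferon-induced gene (0.835), and I830012O16Rik (0.739). For Cxcl10 they were Nono (0.864) and Phf6 (0.851), and for Cxcl16 Napa (0.815) and Lrrc57 (0.814). Without the 2 libraries farthest from the median these values lay between 0.573 (Cxcl16 and Napa) and 0.880 (Cxcl2 and Ednrb).

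Receptors of these ligands were read in the same libraries. Cxcr2, the ELR receptor, was 1.18, 3.28 and 1.90 CPM in FVB BM IMs and 13.2, 14.1, 19.2, 73.8 and 16.1 CPM in primary tumor TIMs. Lymph node TIMs had 9.51, 8.57, 4.94, 10.8 and 7.88 CPM, and lung TIMs 1.95 to 3.54 CPM against 2.27 to 3.99 CPM in DBA2 BM IMs. It rose in primary tumors (3.66 ± 0.74, adjusted p = 0.00216) and lymph nodes (1.98 ± 0.45, adjusted p = 0.00682), had a log2 fold change of -0.23 ± 0.32 in lungs (adjusted p = 0.662), and the changes differed between models (-3.91 ± 0.75, adjusted p = 0.00209). Cxcr2 is also a neutrophil marker, and the neutrophil sum, highest in its group at 1476 CPM in primary tumor replicate 4, the library with 73.8 CPM of Cxcr2, was lower in TIMs than in BM IMs. Csf3r and Mmp8 of that sum had higher medians in primary tumor TIMs than in FVB BM IMs, as given above, and the part of neutrophils in the Cxcr2 level was not tested.

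Cxcr3, the receptor for Cxcl9, Cxcl10 and Cxcl11, rose in lymph node TIMs (2.27 ± 0.65, adjusted p = 0.0196), from 3.98 to 7.66 CPM in FVB BM IMs to 26.8, 31.1, 44.9, 23.6 and 3.86 CPM. Lymph node replicate 5, the lowest in Cxcr3, was also the lowest of its group in the dendritic cell sum (67.3 CPM), and replicate 3, the highest in Cxcr3, was the highest in that sum (564 CPM). The T cell sum ran the same way, at 40.0, 31.8, 54.7, 21.9 and 3.42 CPM in the 5 lymph node libraries in order. Cd4 and Cd8a carried that sum, with lymph node medians of 12.1 and 11.7 CPM, while Cd3d, Cd3e and Cd3g were at most 1.54 CPM there. Cxcr3 is a known chemokine receptor of T cells. The part of either cell type was not tested. Cxcr3 did not pass in primary tumors (0.79 ± 0.43, adjusted p = 0.133) or lungs (0.46 ± 0.28, adjusted p = 0.274). Cxcr4, the Cxcl12 receptor, fell in all 3 TIM groups, by 1.32 ± 0.16 (adjusted p = 7.19e-05), 1.10 ± 0.29 (adjusted p = 0.0133) and 2.10 ± 0.20 (adjusted p = 5.98e-05) in log2 units for the primary tumor, lymph node and lung groups. Its levels were 25.2 to 35.0 CPM in BM IMs and 5.56 to 19.8 CPM in TIMs, with no overlap.

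**Figure D5:**
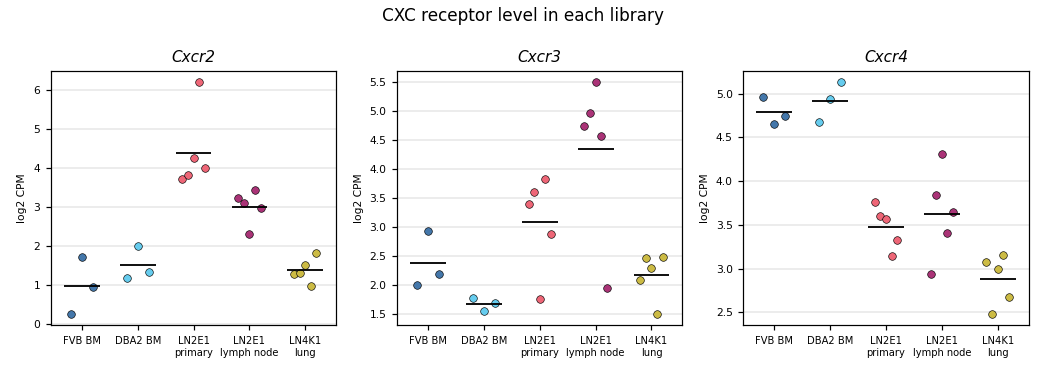
Level of the receptors Cxcr2, Cxcr3 and Cxcr4 in each library, in log2 CPM with a prior count of 2; points are libraries, bars are group means, and each panel has its own vertical range. Cxcr4 is lower in every TIM library than in every BM library, and 1 primary tumor library stands apart in Cxcr2.

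Of 7 receptors and scavengers tested in each comparison with BM IMs, 3 rose and 2 fell in primary tumors, 3 rose and 1 fell in lymph nodes, and 1 rose and 1 fell in lungs. Over all genes, 33.3% rose and 28.6% fell in primary tumors, 20.2% and 17.2% in lymph nodes, and 13.9% and 11% in lungs. With so few receptors and scavengers, nothing is read from their counts in any group. Other ligands of the family with at least 10 CPM in a library were Cxcl13, the B cell attractant, and the platelet chemokines Pf4 and Ppbp. Cxcl13 was at 0 counts in all 6 BM libraries, 35.0, 4.86, 4.26, 8.79 and 6.78 CPM in the primary tumor group, 0 to 10.7 CPM in the lymph node group and 0.0696 to 3.17 CPM in lung TIMs. Pf4 and Ppbp fell in primary tumors (log2 fold changes of -4.22 and -5.67) and in lymph nodes (-4.16 and -8.45), all with an adjusted p of at most 0.00590. Both are platelet markers, and the platelet sum, of which they are part, was 25.7 to 144 CPM in FVB BM IMs.

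Upstream genes were read as counts. Of 19 genes of the NF-kB pathway, 19 rose in primary tumors, 16 in lymph nodes and 12 in lungs and none fell, with median log2 fold changes of 1.82, 1.70 and 0.89, where 33.3%, 20.2% and 13.9% of all genes rose and 28.6%, 17.2% and 11% fell. Il1b, which encodes interleukin 1 beta, had the largest change in each (7.68 ± 0.22, 6.95 ± 0.20 and 7.14 ± 0.71, adjusted p of at most 8.63e-05), and Tnfaip3, an inhibitor of NF-kB signaling, rose by 3.11 ± 0.24 in primary tumors (adjusted p = 4.63e-06). Of interferon-related genes only a few are given, chosen for the size of their change, and they do not stand for the rest. Gbp2, an interferon-induced GTPase, rose by 5.40 ± 0.38, 6.16 ± 0.44 and 3.20 ± 0.21, and Socs1, a feedback inhibitor of JAK kinases, by 4.37 ± 0.18, 5.38 ± 0.23 and 2.96 ± 0.16 in the same order. Ifnar2, a chain of the type I interferon receptor, fell in lungs, with -0.41 ± 0.11 (adjusted p = 0.0264), and was -0.16 ± 0.10 in primary tumors (adjusted p = 0.182) and 0.13 ± 0.12 in lymph nodes (adjusted p = 0.430). In lymph nodes against primary tumors Gbp2 was higher by 0.76 ± 0.15 (adjusted p = 0.00704), while 3 of 19 NF-kB genes were higher and 3 lower, against 6.15% and 5.55% of all genes, with Nfkbiz at -1.40 ± 0.13 (adjusted p = 0.000282). The lung change was the lower one for 8 of 19 NF-kB genes, led by Tnfaip3 (-2.77 ± 0.38, adjusted p = 0.000280), and none had the higher change in lungs, where 13.2% of all genes had a lower and 13.3% a higher one. It was also lower for Irf7, an interferon regulatory factor (-2.34 ± 0.31, adjusted p = 0.000219). DBA2 BM IMs were above FVB BM IMs for 6 of 19 NF-kB genes and below for 1, against 11.5% and 9.57% of all genes.

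Proteases that cut or shed CXC ligands moved both ways, with 5 of 8 higher and 2 lower in primary tumors, 4 and 2 in lymph nodes, and 2 and 2 in lungs. The shares of all genes that rose and fell were 33.3% and 28.6% in primary tumors, 20.2% and 17.2% in lymph nodes and 13.9% and 11% in lungs. With 8 proteases nothing is read from their counts in any group. Mmp12, the macrophage elastase, rose by 5.04 ± 0.56, 3.67 ± 0.54 and 5.86 ± 0.82, and Elane, the neutrophil elastase, fell in all 3, with log2 fold changes of -8.55 ± 0.53 in primary tumors, -9.003 ± 0.956 in lymph nodes and -4.67 ± 0.54 in lungs. Elane is also 1 of the neutrophil markers whose sum was highest in BM IMs. Of 5 hypoxia-responsive genes known to control Cxcl12 and Cxcr4, 3 rose and 2 fell in primary tumors, 2 of 4 tested rose in lymph nodes, and 2 rose and 1 fell in lungs, beside the same shares of all genes, and with so few genes nothing is read from these counts. Hif1a rose by 2.65 ± 0.14, 2.50 ± 0.17 and 1.36 ± 0.15 in that order, with an adjusted p of at most 0.000188.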

How the data were processed

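RNA-Seq was read for 21 libraries of sorted IMs, grouped by their labels. The deposited values are raw read counts per gene symbol: the authors trimmed read pairs with BBDuk, aligned them to the mm10 genome (GRCm38) with BBMap and counted them with featureCounts 1.5.2 of Subread, with SAMtools 1.8 named in the processing notes. Libraries were not strand-specific, reads carry no molecular identifiers, and 0 columns lacked a sample.

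The main test was edgeR 4.0.16 in R 4.3.3 (TMM factors, filterByExpr with a minimum count of 10 and total of 15, robust quasi-likelihood test, Benjamini-Hochberg adjustment over all genes tested). A fit held only the libraries compared, and the difference between models as an interaction. edgeR stands in place of the DESeq2 test of the authors, which was run as an alternative (DESeq2 1.42.0, limma 3.58.1 loaded with edgeR). The standard error is the absolute log2 fold change divided by the square root of F. The code was tested on simulated data. Floors cover counting error only. Tables were made with pandas 2.3.3, numpy 2.4.6 and scipy 1.17.1 and plots with matplotlib 3.10.9, in Python 3.11.15.

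The 9 members, the lists and the tests were chosen with earlier results of these data known. Named outside the 9 were the 2 genes most like each member with a mean log2 CPM of at least 3, CXC receptors and ligands reaching 10 CPM in a library, and up to 3 called genes per list by size of change, of which a selection is printed. The counts of 1 list are not reported here. Alternatives covered size factors, low-count filters, 1 fit of all 5 groups, DESeq2 with and without shrinkage, a replicate block, the BM IMs of the other strain and leaving out each library.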

Additional observations from a re-analysis of the deposited data

Results flagged for a closer look

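In 27 group levels of 5 libraries, 1 for each of the 9 genes in each of the 3 TIM groups, 4 single libraries lay far from the other 4 by Dixon's test at 95%. For normally distributed values that test flags about 1 in 20 groups by chance. Cxcl3 was 76.1 CPM in primary tumor TIM replicate 3, against 15.3 to 32.7 CPM in the others. The gap to the nearest library was 0.715 of the range, just over the critical value of 0.71. Cxcl12 was 3.85 CPM in primary tumor TIM replicate 4, against 0.302 to 1.16 CPM, and this library had the highest fibroblast sum of its group (1134 CPM). Cxcl12 was 0.154 CPM, or 13 counts, in lymph node TIM replicate 5 and at 0 counts in the other 4. Cxcl5 was 0.0119 CPM, or 1 count, in lymph node TIM replicate 3 and at 0 counts in the other 4, all under the floor of 3 counts. With 4 libraries at 0 counts the test flags any count above 0, so nothing is read from these lymph node flags.

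The change from BM IMs to TIMs differed between the LN4K1 lung and LN2E1 primary tumor models for 7 members by the interaction test. The lung change minus the primary tumor change on the log2 scale was -4.17 for Cxcl1, -2.80 for Cxcl2, -2.85 for Cxcl3, -9.02 for Cxcl5, -1.71 for Cxcl9, -2.98 for Cxcl10 and -1.97 for Cxcl16. The Cxcl5 value depends on libraries at 0 counts and has no reading as a fold. Strain, tumor line, route and tissue cannot be told apart in this contrast.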

How the results depend on the processing

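Over 50 fold changes of members and their 827 values under alternatives, 782 kept their direction and side of the threshold, 20 passed newly, 25 no longer passed, and 0 of the called ones reversed. The count of members that changed stayed within 1.5 times the reported one under every alternative in 5 of the 6 contrasts. For lymph node against primary tumor TIMs, 2 members changed, against 4 with all 5 groups in 1 fit, 4 with DESeq2 and 1 with the replicate block, and 1 to 4 without single libraries (1 without primary tumor replicate 4, and 4 without lymph node replicate 1 or 5). DEG counts moved more, and fits without a library have fewer samples. They were 2 to 5 of the reported 5 in lymph nodes (2 without FVB BM replicate 1), 1 to 4 of the reported 4 in lungs (1 without DBA2 BM replicate 1, 2 or 3 or lung replicate 4, 2 without lung replicate 1 or 2), and 0 to 1 of the reported 1 in the difference between models (0 in 14 of 16 such fits).

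DESeq2 gave 1 DEG between the LN2E1 sites and 2 between the BM IMs of the strains, where edgeR gave 0, and unshrunken DESeq2 gave 4 for the difference between models; the cause was not tested. Same-numbered libraries had deviations from their group means that correlated between -0.297 and 0.297, and in no comparison were all above 0.1, so the numbers do not pair samples. With the number as a replicate block, the changed members were 7 in primary tumors, 7 in lymph nodes and 4 in lungs. Over all 14569, 13273 and 13624 genes tested, the changed genes went from 9025, 4969 and 3389 to 5954, 3566 and 1324. Under this block DEGs were 0 among the members in every comparison. Among all genes they were 0 too, except for 9 in the difference between models. Calls of Cxcl5 and Cxcl12 rest on few counts.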
